A study of Mus musculus with 4 samples.

Results

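The transcripts of 8 complement genes were counted in CD45.2+ 7-AAD-negative immune cells sorted from mouse lung and profiled by droplet single-cell RNA-seq. The genes were C1qa, C1qb and C1qc, which encode the chains of the pattern-recognition molecule C1q, the components C3, Cfb and Cfp, and the receptors C5ar1 and C3ar1. They were taken by symbol from the 31053 genes listed in the count matrices, and each symbol matched 1 row. There were 4 libraries, 1 per group, all from male C57BL/6 mice a few weeks old. Mice labelled Ift20 f/f carried a floxed Ift20 gene, which encodes an intraflagellar transport protein, with no Cre and are called WT here. Mice labelled Ift20 f/f CD4 cre carried the same floxed alleles with Cre driven by Cd4, which is active from the developing T cell onward, and are called KO. The floxed alleles were therefore present in controls and KO alike, and the myeloid and B cells described below were not the intended targets of the deletion. Papain, a cysteine protease used as an inhaled allergen, was given intranasally at 25 µg on 3 consecutive days and again on day 14, and lungs were taken on day 15, while the 2 control libraries are labelled DPBS. The number of mice behind a library is not given in the sources used here, so no comparison below has a replicate check, and all intervals are 95% intervals that cover counting error only.

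Complement is a set of proteins, many of them proteases made as inactive precursors, that tag particles and cells and call in leukocytes. C1q starts the classical pathway by binding antibody complexes and dying cells. C3 is the central component on which all pathways meet, factor B (Cfb) supplies the protease of the alternative pathway and properdin (Cfp) holds that enzyme together. The small fragments released from C3 and C5 act through the receptors C3ar1 and C5ar1. The liver makes most circulating complement, but macrophages are known as the main source of C1q, and lung leukocytes make several other components locally.

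Of 28805 barcodes, 25909 cells were kept, between 5433 and 7587 per library, at a median of 5842 to 6681 unique molecular identifiers (UMIs) per cell. A UMI stands for 1 captured transcript molecule. Where 4 values stand in a row below, the pair from the DPBS libraries comes first and the pair from the papain libraries second, and WT precedes KO within each pair. Between 7 and 16 cell barcodes were shared by any pair of libraries. Ift20 in T, NK and ILC-like cells stood at 62.7 and 62.0 CPM (UMIs of the gene divided by all UMIs of the same cells and scaled to 1e6) in the WT libraries with DPBS and papain, and at 26.5 and 27.7 in the KO libraries, which goes with the labels. All complement genes were kept out of the clustering, so that no cluster was defined by them. Clusters were named only from fixed marker genes, and a macrophage cluster of 286 cells was among those that could not be named. Its score, the mean log2 ratio of marker detection against all other cells, was 2.14 for interstitial macrophage and 1.55 for type 2 dendritic cell markers. Of 15 interstitial markers, 11 were each seen in at least 10% of its cells (Fcrls in 53.9% and Trem2 in 68.2%). The same held for 8 of 10 dendritic cell markers and 9 of 15 alveolar macrophage markers. Detection was more frequent than in other cells for all 15 interstitial markers, 7 of the 10 dendritic cell markers and 6 of the 15 alveolar macrophage markers. It is called the Retnla cluster after its leading gene. A smaller unnamed macrophage cluster, with Fstl1 and then Gpnmb as its leading genes, held 186 cells and is called the Gpnmb cluster. Further unnamed clusters were left out of all classes. They scored highest for neutrophil (231 and 67 cells), T cell (1430 and 669 cells) or alveolar macrophage markers (57 and 51 cells). The levels given below for neutrophil-like, alveolar macrophage-like and T, NK and ILC-like cells do not cover them.

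The positions are given on GRCm38, and all 8 genes lie on the minus strand. The C1q genes sit side by side on chromosome 4, with C1qb at chr4:136880129-136886187, C1qc at chr4:136889804-136893065 and C1qa at chr4:136895917-136898803, each protein-coding with 3 exons. Gaps of 3617 and 2852 bases separate them. C3 and Cfb both lie on chromosome 17, at chr17:57203970-57228136 and chr17:34856374-34862518, separated by 22341452 bases. Cfp lies at chrX:20925454-20931555, C5ar1 at chr7:16246743-16259540 and C3ar1 at chr6:122847138-122856161. Gm20547 overlaps Cfb on the same strand and had 0 UMIs, so reads shared by both genes could have been dropped and the Cfb counts are uncertain.

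Promoter windows from RefSeq (GRCm38.p6, 250 bases before to 50 bases after the start) were listed for 6 of the 8 members. Those of C1qb, C1qc and C3ar1 are shown because these genes had their highest level in the same small cluster. Capitals mark matches to GAGGAA (the core that the macrophage factor PU.1 binds, which reads TTCCTC on the other strand), TGANTCA (an AP-1 motif) or TATAAA, each searched on both strands. All are on the minus strand, C1qb at chr4:136886151-136886450, C1qc at chr4:136892865-136893164 and C3ar1 at chr6:122856108-122856407.
C1qb: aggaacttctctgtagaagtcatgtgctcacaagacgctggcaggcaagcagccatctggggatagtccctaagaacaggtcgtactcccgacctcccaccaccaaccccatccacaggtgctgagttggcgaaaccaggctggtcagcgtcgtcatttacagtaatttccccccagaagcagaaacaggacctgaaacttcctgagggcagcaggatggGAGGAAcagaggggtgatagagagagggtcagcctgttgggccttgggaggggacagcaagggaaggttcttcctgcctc
C1qc: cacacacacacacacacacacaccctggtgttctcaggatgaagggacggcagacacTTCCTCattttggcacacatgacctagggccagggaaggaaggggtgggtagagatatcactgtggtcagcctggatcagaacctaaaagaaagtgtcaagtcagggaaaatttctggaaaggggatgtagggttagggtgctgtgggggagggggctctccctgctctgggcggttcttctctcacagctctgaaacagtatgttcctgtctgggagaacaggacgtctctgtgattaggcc
C3ar1: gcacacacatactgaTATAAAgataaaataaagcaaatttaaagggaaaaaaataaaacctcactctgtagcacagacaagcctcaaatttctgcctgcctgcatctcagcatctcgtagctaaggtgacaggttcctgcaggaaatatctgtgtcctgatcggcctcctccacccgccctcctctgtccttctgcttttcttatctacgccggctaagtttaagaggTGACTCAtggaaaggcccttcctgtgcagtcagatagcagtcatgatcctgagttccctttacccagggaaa
GAGGAA began 30 bases before the start of C1qb and 193 bases before that of C1qc, where it lay on the opposite strand, and it was also found in the Cfp window. TGANTCA began 22 bases before the C3ar1 start and was in no other member window. TATAAA was in the windows of C3ar1 and C3. These letters are common, being present in 28.3%, 7.81% and 13.6% of all 32851 listed promoters respectively, and a match is not a binding site.

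Transcripts of the C1q chains were concentrated in the Retnla cluster, which made up 1.10% of cells and held 94.5% of C1qa, 86.2% of C1qb and 91.4% of C1qc UMIs. C1qa in that cluster was counted at 1966 and 2323 CPM with DPBS (WT, then KO) and at 1279 and 1497 CPM with papain. C1qb had 2097, 2288, 1464 and 1766 CPM, and C1qc 1178, 1314, 807 and 861 CPM. Each chain was therefore lower in both papain libraries than in both DPBS libraries, and no library overlapped the range of the next class in any chain. Any other class reached at most 45.7 CPM for C1qa (cDC2-like cells), 64.9 for C1qb (F13a1 monocyte-like cells) and 25.7 for C1qc (cDC2-like cells). In T, NK and ILC-like cells, taken here as a measure of background, the highest level of any chain in any library was 0.872 CPM. The origin of these counts was not tested.

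**Figure D1:**
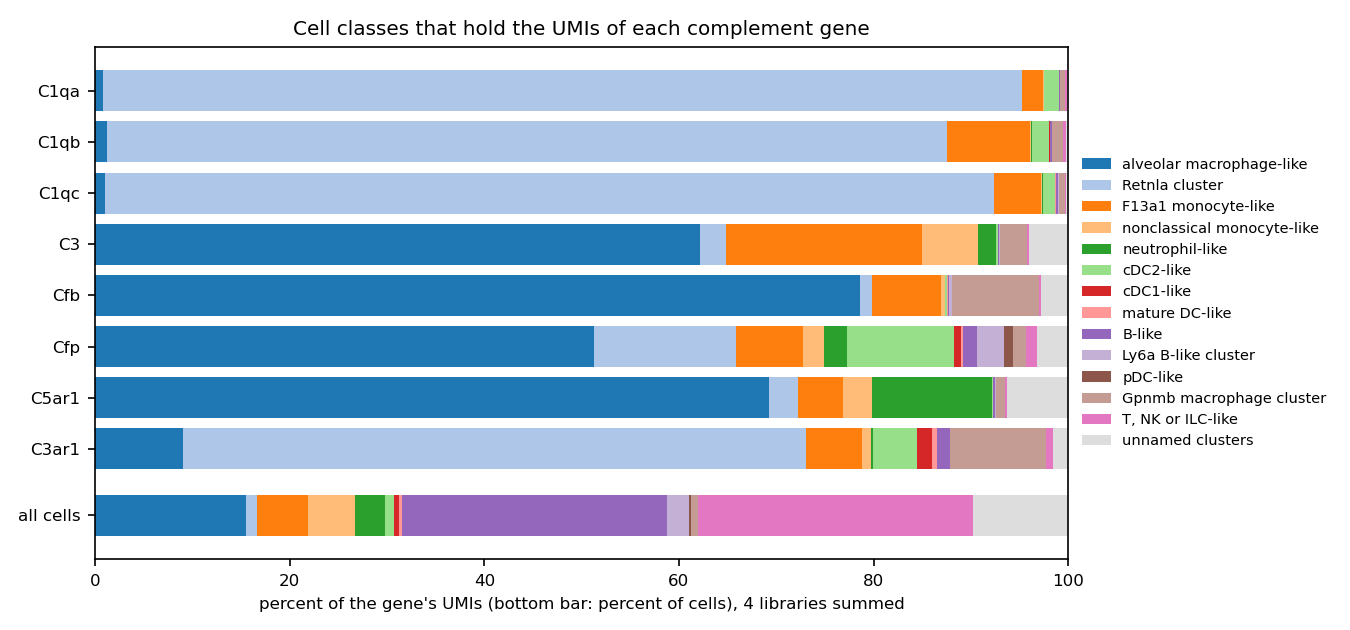
Each row is 1 complement gene and the coloured parts give the percent of its UMIs over all 4 libraries that fell in each cell class. The C1q chains and C3ar1 fall mainly in the Retnla cluster, while C3, Cfb, Cfp and C5ar1 fall mainly in the alveolar macrophage-like cells, the largest myeloid class.

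The 3 chains appeared in a steady proportion. Of the C1q UMIs in the Retnla cluster, between 36.0% and 39.2% were C1qa, 38.6% to 42.8% C1qb and 20.9% to 22.7% C1qc across the 4 libraries. All 3 chains were seen together in 71.2%, 62.5%, 66.9% and 66.7% of its cells, and none of them in 10.7% to 15.6%. A cell of the cluster carried a median of 40.5, 38, 21 and 45 C1q UMIs, so that the typical Papain WT cell had the fewest. At least 1 chain was thus seen in most cells of the cluster, but the amounts were uneven, the 10 richest cells holding 57.6%, 77.3%, 37.3% and 50.3% of its C1q UMIs.

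**Figure D2:**
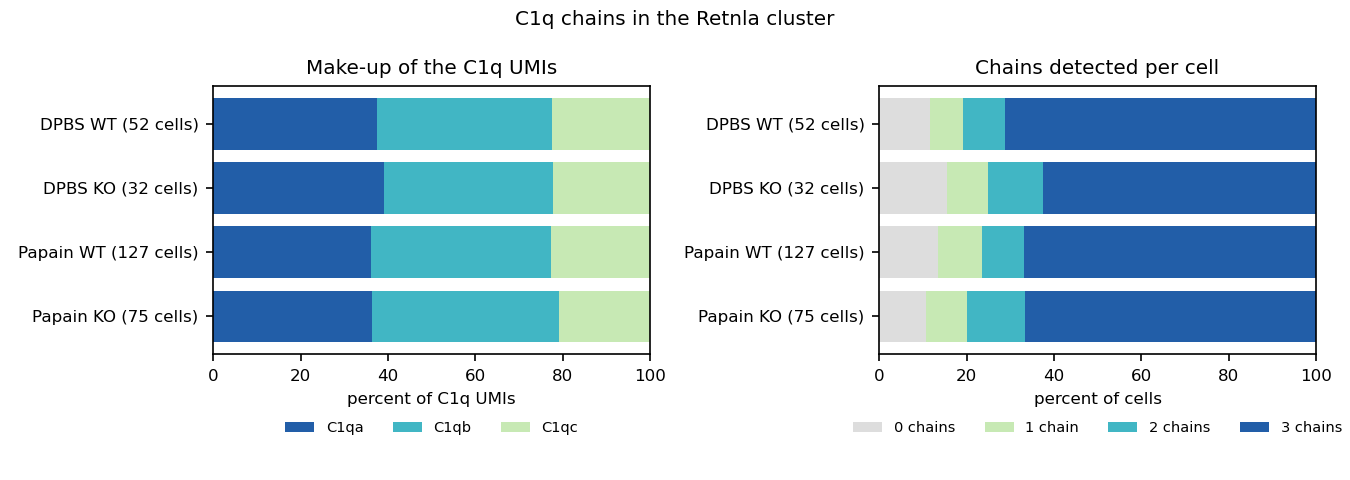
The left panel gives the percent of C1q UMIs in the Retnla cluster that came from each chain and the right panel the percent of its cells with 0, 1, 2 or 3 chains detected, by library. The chain make-up is close to the same in the 4 libraries, and cells with 3 chains are the largest part in each (62.5% to 71.2%).

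Cells with all 3 chains could also be counted without any clustering. They numbered 44 of 7587 in DPBS WT (0.580%, exact binomial interval 0.422 to 0.778), 26 of 5433 in DPBS KO (0.479%, 0.313 to 0.700), 109 of 7454 in Papain WT (1.46%, 1.20 to 1.76) and 55 of 5435 in Papain KO (1.01%, 0.763 to 1.32). The interval of Papain WT lay above both DPBS intervals, while that of Papain KO lay above DPBS KO and met the upper end of DPBS WT. Because the cells were sorted on CD45.2, these are shares of sorted immune cells and move with every other class in the sort. Of the 234 cells, 192 (82.1%) were in the Retnla cluster and 19 (8.12%) in F13a1 monocyte-like cells, and no T, NK or ILC-like cell was among them. Summed over all cells, C1q was 72.4 CPM with DPBS and 120.3 CPM with papain in WT, and 63.9 and 118.6 CPM in KO, while the level within the Retnla cluster was lower with papain. In such a sum alone, more cells of a type and more RNA per cell cannot be told apart. The Retnla cluster made up 0.685%, 0.589%, 1.70% and 1.38% of the cells of the 4 libraries. Its summed C1q level was 5242, 5925, 3549 and 4125 CPM. The part of each in the sum was not tested.

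Within the Retnla cluster the papain to DPBS ratios of the chains stayed short of 2-fold. On the log2 scale they were -0.62 for C1qa, -0.52 for C1qb and -0.55 for C1qc in WT, and -0.63, -0.37 and -0.61 in KO. The KO to WT ratios were smaller still, between 0.09 and 0.27 for the 3 chains in both treatments. The alveolar macrophage marker list summed to 5613 CPM in the Papain WT cells of the cluster against 1191 to 1693 CPM in the other libraries and 24890 to 47560 CPM in alveolar macrophage-like cells, and the part of this difference in the C1q levels was not tested.

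Outside that cluster, C1q levels were low and came from few cells. The clusters joined as F13a1 monocyte-like cells scored 1.74 and 1.81 for classical and 1.67 and 1.62 for nonclassical monocyte markers. These cells had 48.7, 44.7, 64.9 and 30.4 CPM of C1qb, and their 10 richest cells held 81.5% to 98.0% of their C1q UMIs. C1qb made up 59.4% to 78.6% of the C1q UMIs there, more than in the Retnla cluster. C1qa in the same class was 2.86, 6.09, 21.4 and 4.68 CPM, highest in Papain WT. In cDC2-like cells C1qb was 9.51, 32.0, 62.5 and 19.5 CPM, and in alveolar macrophage-like cells 0.692, 0.358, 5.16 and 1.71 CPM.

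In all 3 of these classes Papain WT had the highest level of each chain. The log2 ratio of Papain WT to DPBS WT for C1qa was 2.90 (2.01 to 3.95) in F13a1 monocyte-like, 2.09 (1.10 to 3.27) in cDC2-like and 3.45 (2.36 to 4.74) in alveolar macrophage-like cells. These ratios depended on where the border of a class was drawn. With finer clusters the first became -2.20, and with cells classed by their marker transcripts the second became -1.19. Of the 49 C1qa UMIs in alveolar macrophage-like cells of Papain WT, 36 lay in a shallow cluster led by Rnase2a. This cluster held 20 cells of DPBS WT, 78 of DPBS KO, 160 of Papain WT and 3 of Papain KO, and all its C1qa UMIs were from Papain WT. Without it C1qa was 0.308 CPM in DPBS WT and 0.963 in Papain WT, a log2 ratio of 1.64. The KO to WT ratios of C1qa and C1qc after papain in alveolar macrophage-like cells rest on 2 and 1 UMIs in Papain KO.

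C3 was widely expressed in myeloid cells. F13a1 monocyte-like cells held the highest level in 3 libraries, with 137, 150, 247 and 122 CPM. Alveolar macrophage-like cells followed at 104, 122, 145 and 127 CPM and held 62.2% of all C3 UMIs. Neutrophil-like cells (84.9, 102, 89.4 and 105 CPM) and nonclassical monocyte-like cells (84.6, 81.1, 137 and 74.0 CPM) were close behind. The ranges of these neighbours overlapped, so their order is not fixed beyond the spread between libraries. Dendritic and B-like cells had little, at most 9.51 CPM in any of their classes with at least 20 cells, and T, NK and ILC-like cells at most 0.784 CPM.

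The largest papain to DPBS ratio of C3 was in the Retnla cluster. With DPBS it stood at 32.5 CPM in WT (28 UMIs) and 7.81 CPM in KO (4 UMIs). With papain it stood at 119 CPM in WT and 92.6 CPM in KO (125 UMIs). Both papain libraries were above both DPBS libraries, the log2 ratio being 1.87 for WT (1.30 to 2.49) and 3.57 for KO (2.18 to 5.47), and both ratios were past 2-fold in 12 of 12 other settings. The alveolar macrophage marker sum in these cells was also higher with papain in WT, at 5613 against 1191 CPM, but not in KO, at 1354 against 1693 CPM, and its part in the WT ratio was not tested. The share of its cells with a C3 UMI was 13.5% and 9.38% in the DPBS libraries and 32.3% and 32.0% in the papain libraries, at median depths of 14457 to 17494 UMIs, and 1.92%, 0%, 9.45% and 8.0% when each cell was thinned to 1000 UMIs. T, NK and ILC-like cells, at median depths of 5566 to 6678 UMIs, had shares of at most 0.571%. The cells with all 3 C1q chains, picked without clustering, gave 32.1, 18.7, 136 and 81.7 CPM of C3, with a log2 ratio of 2.08 for WT (1.46 to 2.77) and 2.13 for KO (1.08 to 3.38). The KO to WT ratio of C3 after DPBS in the cluster, -2.06 (-4.03 to -0.54), rests on 4 UMIs and turned to 0.57 with cells classed by marker transcripts.

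In monocytes C3 was highest in Papain WT. The F13a1 monocyte-like level there was above Papain KO by more than counting error, with a KO to WT log2 ratio of -1.02 (-1.18 to -0.86) that was past 2-fold in 8 of 12 other settings. In nonclassical monocyte-like cells the same ratio was -0.89 (-1.18 to -0.61), short of 2-fold. Papain to DPBS ratios were 0.85 and 0.70 in WT for these classes and -0.30 and -0.13 in KO. Neutrophil-like C3 did not separate the libraries, with ratios between 0.05 and 0.26 whose intervals all included 0.

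Cfb was mainly a macrophage transcript. Alveolar macrophage-like cells held 78.6% of its UMIs, at 13.5, 16.5, 14.2 and 23.3 CPM. The Gpnmb cluster had 65.0 and 53.3 CPM in the DPBS libraries (54 and 58 UMIs) and 8.58 and 8.29 CPM in the papain libraries (15 and 4 UMIs). Its levels with papain were below those with DPBS in both genotypes, and the interstitial macrophage marker list in the same cells summed to 133 and 100 CPM with DPBS and 2805 and 2238 CPM with papain, so the cells grouped there differed in more than Cfb. F13a1 monocyte-like cells had 4.95, 10.7, 6.79 and 3.22 CPM. The Retnla cluster had 0 UMIs with DPBS and 14 and 4 with papain. With DPBS WT set to the floor of 3 UMIs, the level in WT was 2.13-fold higher with papain. The lower end of the counting interval was 0.596 on the log2 scale, and the pair was under the 20 UMIs set for a comparison. No Cfb UMI was found in neutrophil-like cells, where the floor of 3 UMIs stands for 2.68 to 8.98 CPM in the 4 libraries. Both C3 and Cfb were seen in 131 to 221 alveolar macrophage-like cells per library.

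Cfp was high in some of the dendritic cell classes. It stood at 389, 283, 358 and 298 CPM in cDC2-like cells and at 309, 320, 463 and 560 CPM in the Retnla cluster. pDC-like cells, with 2 to 20 cells per library, had 88.2 to 454 CPM. These 3 classes overlapped in range. The other dendritic cells were low, at 23.8 to 62.0 CPM in cDC1-like and 0 to 36.4 CPM in mature DC-like cells. Neutrophil-like cells (110 to 147 CPM) and alveolar macrophage-like cells (96.5 to 102 CPM) had steady levels, the second with an SD of 2.30 CPM over 4 libraries that differ in genotype and treatment. In the Retnla cluster both papain libraries were above both DPBS libraries, at 0.58 for WT (0.38 to 0.79) and 0.81 for KO (0.56 to 1.06) on the log2 scale. Cells with all 3 C1q chains, picked without clustering, had less Cfp than the cluster, at 147, 108, 263 and 480 CPM. Their papain to DPBS log2 ratios were 0.84 for WT (0.53 to 1.17) and 2.16 for KO (1.72 to 2.63). The size of the difference thus depended on how the cells were picked.

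Of the 8 members, B cells carried little apart from Cfp. The Ly6a B-like cluster had 52.4, 45.2, 50.1 and 59.6 CPM of Cfp, seen in 22.7% to 31.5% of its cells, with no ratio past 2-fold. The main B-like class had 3.99, 2.45, 12 and 6.18 CPM, and its papain to DPBS log2 ratios were 1.59 for WT (1.03 to 2.18) and 1.34 for KO (0.48 to 2.27). T, NK and ILC-like cells moved in the same direction, from 2.07 to 4.74 CPM in WT and from 1.31 to 4.14 CPM in KO. The share of B-like cells with a Cfp UMI was 1.38%, 1.07%, 3.22% and 2.24% against 1.36%, 0.886%, 2.43% and 2.04% of T, NK and ILC-like cells, at median depths of 3843 to 4677 and 5566 to 6678 UMIs, and at 1000 UMIs a cell it was 0.278% to 0.808% against 0% to 0.525%. The B-like level was above that of T, NK and ILC-like cells in each library, and with that background subtracted the papain to DPBS log2 ratios of Cfp became 1.91 in WT and 0.84 in KO, the second short of 2-fold. For the other members the B-like level was at most 1.63 CPM.

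**Figure D3:**
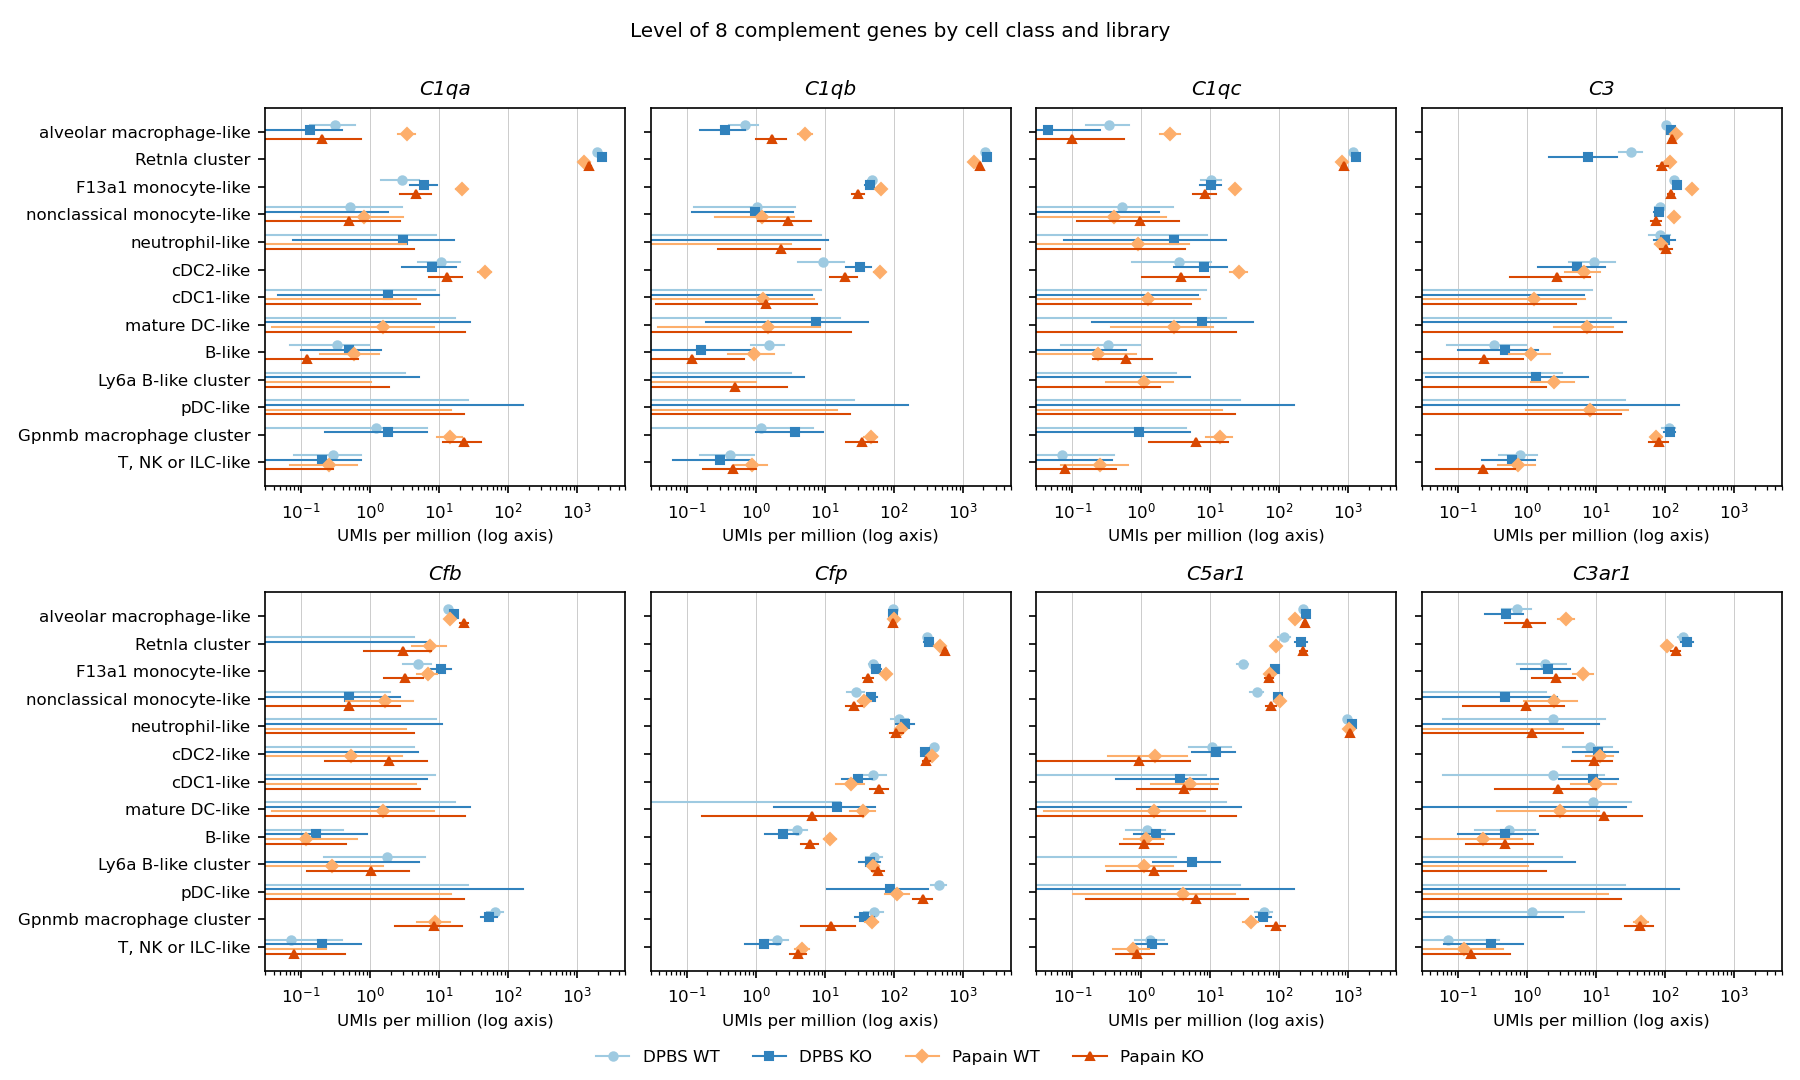
Each panel gives 1 complement gene, with cell classes down the side, the level in CPM on a log axis, 1 coloured point per library and bars for the exact 95% Poisson interval. C1q and C3ar1 peak in the Retnla cluster, C5ar1 in neutrophil-like cells, and T, NK and ILC-like cells stay at or below 4.74 CPM for every gene.

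C5ar1, the receptor for the C5a fragment, was highest in neutrophil-like cells in every library, at 961 and 1116 CPM with DPBS (WT, then KO) and 1037 and 1074 CPM with papain. A C5ar1 UMI was seen in 90.4%, 84.1%, 89.9% and 93.9% of these cells at median depths of 2932 to 3325 UMIs, and in 59.4% to 64.9% at 1000 UMIs, against at most 0.890% of T, NK and ILC-like cells. The papain to DPBS log2 ratios were 0.11 for WT (-0.06 to 0.28) and -0.06 for KO (-0.23 to 0.12), so that a difference within these bounds was not detectable. For KO against WT the ratio was 0.22 after DPBS, from 373 and 396 UMIs, the largest of these ratios. After papain it was 0.05 (-0.075 to 0.178). Alveolar macrophage-like cells came next at 220, 245, 167 and 233 CPM and, being numerous, held 69.3% of all C5ar1 UMIs. Their Papain WT level was the lowest, with a log2 ratio of -0.40 (-0.47 to -0.33) to DPBS WT, and it was 179 CPM without the shallow cluster.

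The C5ar1 level in monocytes was lowest in DPBS WT. F13a1 monocyte-like cells of that library had 29.4 CPM (113 UMIs), against 85.6 CPM in DPBS KO (295 UMIs) and 73.4 and 71.7 CPM with papain (411 UMIs in WT, 245 in KO). DPBS WT stood below the other 3 libraries, with log2 ratios of 1.32 (1.02 to 1.63) for Papain WT and 1.54 (1.22 to 1.87) for DPBS KO against it, both past 2-fold in 12 of 12 other settings. The share of cells with a UMI was 16.0% in DPBS WT and 36.2% to 44.5% in the others, and 4.58% against 6.27% to 8.87% at 1000 UMIs. This class joined 2 clusters, and DPBS WT was lowest in each, at 12.8 against 28.1 to 48.0 CPM in the cluster led by F13a1 and 60.4 against 110 to 112 CPM in that led by Thbs1. The cluster led by F13a1, the lower in C5ar1, held 223 of 349, 113 of 283, 226 of 451 and 124 of 271 cells of the class. Nonclassical monocyte-like cells showed the same order of DPBS WT below the rest, at 47.2, 95.7, 103 and 76.4 CPM, with ratios of 1.12 (0.77 to 1.48) for papain in WT and 1.02 (0.65 to 1.39) for KO against WT after DPBS, past 2-fold in 11 and 10 of 12 other settings. In the smaller of their clusters, led by Grk3, DPBS WT at 52.5 CPM (5 UMIs) was not the lowest, since Papain KO had 44.6 CPM (3 UMIs).

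**Figure D4:**
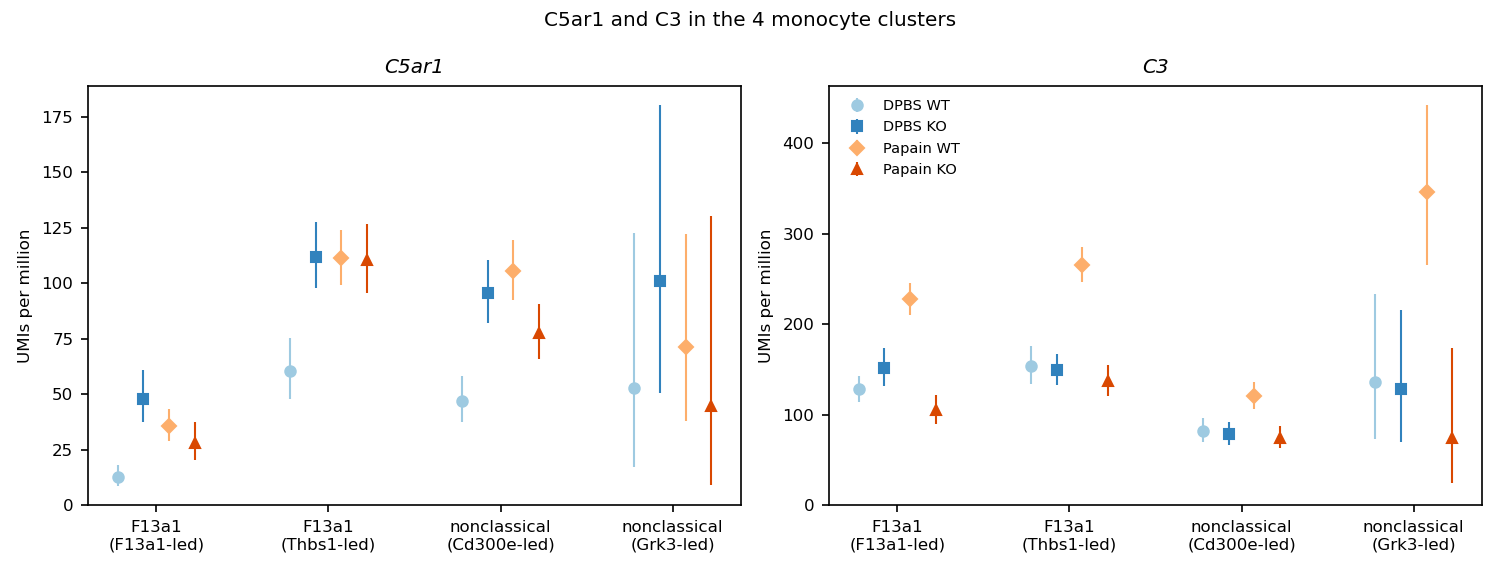
C5ar1 and C3 in the 4 monocyte-like clusters, with the level in CPM for each library and bars for the exact 95% Poisson interval. C5ar1 in DPBS WT is the lowest library in both F13a1 monocyte-like clusters (12.8 and 60.4 CPM), and C3 is the highest in Papain WT in all 4 clusters.

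C5ar1 in the Retnla cluster stood at 116 and 88.8 CPM in the WT libraries (DPBS, then papain) and at 207 and 224 CPM in the KO libraries, so both KO libraries were above both WT libraries. The KO to WT log2 ratio was 1.34 (1.06 to 1.62) after papain, past 2-fold in 12 of 12 other settings, and 0.83 (0.43 to 1.24) after DPBS. Cells with all 3 C1q chains gave a ratio of 1.27 (0.98 to 1.57) after papain and 0.39 (-0.02 to 0.80) after DPBS, so the second was not larger than counting error when cells were picked without clustering. Ift20 is deleted from Cd4-expressing cells in the KO, and with 1 library per group the genotype and the library cannot be told apart.

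C3ar1, the receptor for C3a, was the member with the lowest total, 1039 UMIs, of which 64.0% lay in the Retnla cluster. Its level there was 182 and 209 CPM with DPBS and 109 and 144 CPM with papain, lower in each papain library as for the C1q chains, at -0.74 for WT (-1.05 to -0.43) and -0.53 for KO (-0.88 to -0.18) on the log2 scale. Neutrophil-like cells, rich in C5ar1, had 0 or 1 C3ar1 UMI per library. The receptors met in the Retnla cluster, where both were seen in 46.2%, 53.1%, 24.4% and 53.3% of cells, against 0.831% to 1.69% of alveolar macrophage-like cells. The Gpnmb cluster had 1 and 0 C3ar1 UMIs with DPBS and 80 and 21 with papain, at 45.8 and 43.5 CPM, again beside the higher interstitial macrophage marker sum given above.

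**Figure D5:**
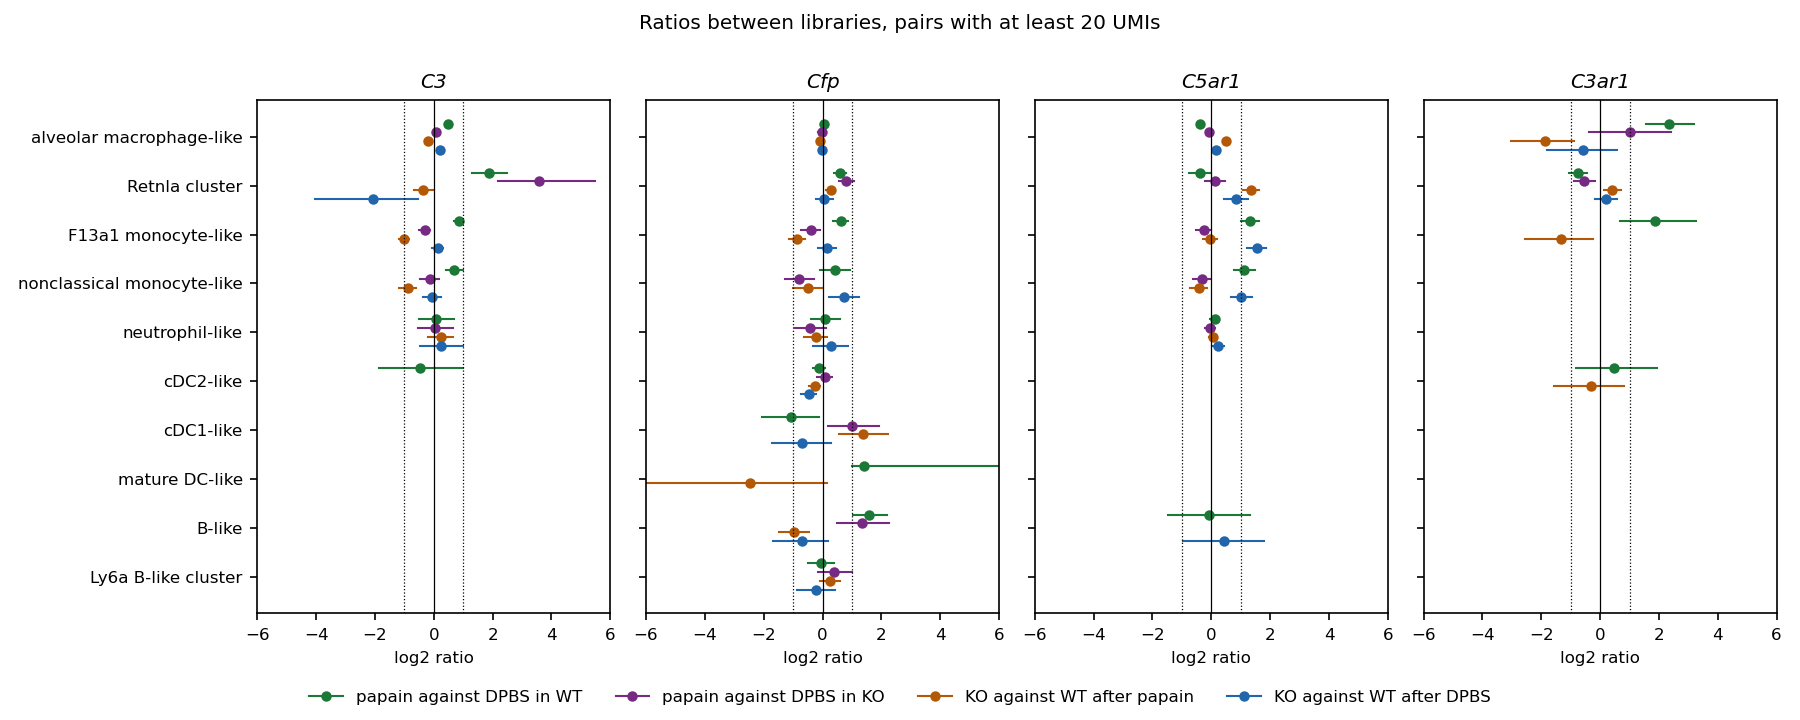
Log2 ratios between libraries, with 95% counting intervals, for C3, Cfp, C5ar1 and C3ar1 in each cell class in which both libraries together held at least 20 UMIs. The vertical line marks no difference. C3 in the Retnla cluster lies to the right with papain in both genotypes (1.87 and 3.57), and C5ar1 in neutrophil-like cells lies within 0.22 of the line.

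Counted over 10 compared classes, a gene and class pair entered a comparison if both libraries together held at least 20 UMIs, and was called if the ratio was at least 2-fold with an interval that did not reach equality. For papain against DPBS in WT, 16 of 41 member pairs were called, 15 of them higher with papain, beside 4.03% of all gene and class pairs. In KO it was 5 of 32 beside 3.35%, 4 of them higher. For KO against WT it was 15 of 38 after papain beside 3.46%, with 13 of them lower in KO, and 5 of 32 after DPBS beside 3.41%, with 4 higher. The C1q chains outside the Retnla cluster made up 8 of the 16 and 9 of the 15, and these are the pairs whose counts rest on few cells. Of the member pairs other than C1q, 8 of 28, 4 of 23, 6 of 26 and 4 of 24 were called in the same order. The median log2 ratio of member pairs was 0.47, -0.10, -0.39 and 0.16 beside 0.01, 0.02, 0.00 and -0.01 for all pairs. Comparisons that use the same library are not independent, since Papain WT enters both comparisons with the most calls.

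Among the compared classes the place of the highest level was the same in all 4 libraries for 6 of 8 members, the exceptions being C3, which was highest in alveolar macrophage-like cells in Papain KO, and Cfp, which was highest in cDC2-like cells in DPBS WT. The Gpnmb cluster was not among the compared classes, and its Cfb level lay above that of alveolar macrophage-like cells in both DPBS libraries, at 65.0 and 53.3 CPM, but not in the papain libraries, at 8.58 and 8.29 CPM. The smaller calls included Cfp in cDC1-like cells, where 17 to 44 UMIs per library gave log2 ratios of -1.07 in WT and 1.02 in KO, past 2-fold in 9 and 7 of 12 other settings. Cfp in mature DC-like cells had 0 UMIs in DPBS WT and 24 in Papain WT, 2.67-fold higher if 3 UMIs are taken as the floor of the DPBS WT library. The lower end of that counting interval was 1.004 on the log2 scale. The class held 17 cells in DPBS WT and 49 in Papain WT. This ratio was past 2-fold in 8 of the 10 other settings that gave it, and its lowest log2 value was 0.236. Cfb in F13a1 monocyte-like cells was lower with papain in KO, at -1.74 (-2.86 to -0.74), and its KO to WT ratios were 1.12 after DPBS and -1.08 after papain. C3ar1 had papain to DPBS ratios in WT of 2.35 in alveolar macrophage-like and 1.86 in F13a1 monocyte-like cells, from levels of at most 6.61 CPM, and KO to WT ratios after papain of -1.88 and -1.33. C1qb in cDC2-like cells was higher in DPBS KO than in DPBS WT, at 1.75 (0.55 to 3.12), from 24 and 8 UMIs.

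The rest of the complement system was counted from a list of 47 genes, of which 46 were found and 20 had at least 20 UMIs in a compared class, while 9 had none. Among terminal components, C8a, C8b and C9 had 0 UMIs, C6 and C7 had 1 each and Hc, which encodes C5, had 38, while C8g had 130. Itgb2, the shared chain of complement receptors 3 and 4, was highest in nonclassical monocyte-like cells at 1108 CPM, and Itgam, the partner chain of receptor 3, in neutrophil-like cells at 424 CPM. C5ar2, the second C5a receptor, was also highest in neutrophil-like cells at 129 CPM. The regulator Cd55 and the C3 fragment receptor Cr2 were highest in B-like cells at 435 and 104 CPM. These levels are means over the 4 libraries.

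Called pairs of these genes numbered 18 of 84 for papain in WT (13 higher, beside 4.03% of all pairs), 5 of 77 in KO (4 higher, beside 3.35%), 15 of 84 for KO against WT after papain (4 higher, beside 3.46%) and 3 of 78 after DPBS (1 higher, beside 3.41%). The last is 3.85%, near the share of all pairs. Fcna, a ficolin of the lectin pathway, was 9.29 and 19.5 CPM with DPBS and 52.9 and 20 CPM with papain in the Retnla cluster, WT before KO in each pair. Itgam in that cluster was 423 CPM in Papain KO against 201.5 to 207 CPM in the other libraries. Cd93 in alveolar macrophage-like cells was 65.3 CPM in Papain WT against 23.6 to 27.4 CPM in the other libraries. Cd55 in the Retnla cluster was lower with papain in both genotypes, at log2 ratios of -1.79 in WT (60.4 to 17.5 CPM) and -1.05 in KO (43.0 to 20.7 CPM). C4b (Retnla cluster, F13a1 monocyte-like and alveolar macrophage-like cells), Itgax (Retnla cluster), Cr2 (Retnla and Ly6a B-like clusters), C1rl and C5ar2 (F13a1 monocyte-like cells), Clu, Itgb2 and Cr1l (mature DC-like cells), C8g (alveolar macrophage-like cells) and Cd46 (B-like cells) made up others of the calls.

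As a description, the level of each member was correlated with 10949 genes over 46 points, each the sum of a class in a library, so that points share libraries and classes. C1qa went with C1qc (r = 0.975), C1qb (0.954) and C3ar1 (0.902), and its nearest other genes were Spink2 (0.911), Plxna4 (0.904) and Fcrls (0.891). C1qb was nearest to Slc13a3 (0.887), Spink2 and Tmem37, and C1qc to Fcna (0.888), Spink2 and Slc13a3. C3ar1 was nearest to the chemokine Ccl7 (0.846), Spink2 and Pmp22. C3 was nearest to Sirpb1c (0.955), Lamp2 and Prdx5, Cfb to Chil3 (0.887), Siglec1 and Abhd3, and Cfp to Cyfip1 (0.818), Atf3 and Myadm. C5ar1 was nearest to C5ar2 (0.937), which encodes the other C5a receptor, then Pilra and Tcn2.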

How the data were processed

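Libraries were made with the 10x Genomics single-cell 3′ v3 kit. The authors deposited raw UMI counts per gene and barcode, made with Cell Ranger (matrix header version 3.1.0), and the submitters' processing notes name mm10. These counts were used as deposited. The gene minimum of 200 took out 163 barcodes and the mitochondrial limit of 15% took out 1098. Scrublet (scanpy 1.11.5) marked 1635 doublets, removed at 0.8% per 1000 barcodes. Seurat 5.3.0 clustered the rest after canonical correlation integration (2000 variable genes without any complement gene, 30 dimensions, resolution 0.8), which gave 38 clusters. The authors' cell annotation was not used here, so classes were rebuilt and may differ from the study's.

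Levels (CPM) are UMIs of a gene over all UMIs of the class in a library, times 1e6. With 1 library per group no test was run. Ratios carry exact 95% counting intervals, from Poisson counts and, for ratios, the binomial split of both counts, and were checked on simulated data. Classes compared were alveolar macrophage-like, Retnla, F13a1 and nonclassical monocyte-like, neutrophil-like, cDC2-like, cDC1-like, mature DC-like, B-like and Ly6a B-like cells. The floor for a count of 0 was 3 UMIs per library.

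Genes named were the 8 members, the other complement genes with at least 20 UMIs in a compared class and a ratio past 2-fold, and for each member the 3 genes with the highest Pearson correlation of log2(CPM + 1) among genes of at least 10 CPM. The members, lists and rules were chosen with earlier results of these data known. There were 10 alternatives planned and 2 added after seeing the data. TMM factors came from edgeR 4.0.16 (R 4.3.3).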

Additional observations from a re-analysis of the deposited data

Results flagged for a closer look

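In 6 gene and class pairs the papain to DPBS ratio went one way in WT and the other way in KO, each with a counting interval that did not reach equality. Each group is 1 library and the difference between the genotypes was not tested. In F13a1 monocyte-like cells the log2 ratios in WT and KO were 0.61 and -0.40 for Cfp, 0.41 and -0.55 for C1qb, 1.32 and -0.26 for C5ar1, and 0.85 and -0.30 for C3. In nonclassical monocyte-like cells they were 1.12 and -0.33 for C5ar1. The KO intervals of C5ar1 nearly reached equality, at -0.506 to -0.006 in F13a1 and -0.637 to -0.015 in nonclassical monocyte-like cells. In F13a1 monocyte-like cells the 10 richest cells held 81.5% to 98.0% of the C1q UMIs of a library. The counting intervals of C1qb do not cover that unevenness. In both monocyte classes the log2 ratios above are papain to DPBS. In cDC1-like cells the ratios were -1.07 and 1.02 for Cfp, from 17 to 44 UMIs per library, and these were past 2-fold in 9 and 7 of 12 other settings.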

How the results depend on the processing

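The 143 ratios were recomputed under 12 alternatives (142 of them for the mean over cells of each cell's CPM and 140 with the T-like level subtracted), 2 of these chosen after seeing the data (leaving out the shallow and the dividing alveolar macrophage-like clusters). Requiring over 500 genes left all 143 and all 41 calls in place, and TMM scaling reversed none and left 39 calls. The largest shifts came with cells classed by their marker transcripts, under which 27 of the 41 calls stayed. Calls for papain in WT then numbered 28 against 16, papain in KO 24 against 5, KO against WT after papain 25 against 15 and after DPBS 8 against 5. Calls for papain in KO were 8 at resolution 1.5, and 3 with the mean over cells of each cell's CPM or without the cell with the most UMIs. Calls for KO against WT after DPBS were 3 without that cell and 8 with the T-like level subtracted. The count of members highest in the same class in all libraries stayed within 1.5 times of 6 in each alternative.

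With cells classed by marker transcripts, the log2 ratios that reversed were C1qa, C1qb and C1qc in cDC2-like cells for papain in WT (-1.19, -1.07 and -1.23) and for KO against WT after papain (1.05, 0.40 and 1.02), C1qa, C1qb, C1qc and C3ar1 in F13a1 monocyte-like cells for KO against WT after papain (3.79, 3.50, 3.90 and 1.48), and, after DPBS, C3 in the Retnla cluster (0.57) and C1qb in cDC2-like cells (-0.12). At resolution 1.5, C1qa and C1qc in F13a1 monocyte-like cells reversed for papain in WT (-2.20 and -2.14), and C1qa, C1qb and C1qc there for KO against WT after papain (1.30, 1.23 and 1.88). Without integration, C3ar1 for papain in WT and C1qb for papain in KO reversed in alveolar macrophage-like cells (-0.071 and -0.18), and without doublet removal C1qa and C1qb in cDC2-like cells for KO against WT after papain (0.11 and 0.13). The cause was not tested. Without the shallow cluster 37 of the 41 calls stayed. Its cells had medians of 800 to 3025 UMIs.

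No paired analysis was possible because each group holds 1 library. Leaving out a library of a group was not run for the same reason. Depth limits classes of few cells, such as mature DC-like and pDC-like cells.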
